A study of Homo sapiens with 17 samples.

Results

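Histone messenger RNAs were examined across 17 libraries of wild-type BEAS-2B, a cell line derived from human bronchial epithelium and immortalised in culture. Genes were taken by the start of their symbol (H1-, H2AC, H2AZ, H2AJ, H2AX, H2BC, H2BU, H3C, H3-, H4C or H4-). This rule gave 72 of the 16884 genes in the table. Histone genes with other symbols, such as H2AW and MACROH2A2, fall outside it. The 72 comprise 59 canonical genes and 13 variant genes, and both classes are described apart. The cells were kept in BEGM, a bronchial epithelial growth medium, for 24 h without acetaldehyde (control, 6 libraries), with 10 mM (6 libraries) or with 16 mM (5 libraries). BEAS-2B is one established line, and the labels do not say whether the libraries came from separate cultures, so each p-value reflects the spread among the libraries alone, which may be technical. RNA was captured by its poly-A tail on oligo(dT) beads before sequencing.

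Canonical histone genes lie in clusters, are transcribed together with DNA replication and supply the bulk of nucleosomes in S phase. Their messenger RNAs end in a short stem-loop that is bound by the stem-loop binding protein SLBP, in place of a poly-A tail, so oligo(dT) capture retains few of them. Variant genes such as H2AZ1 or H3-3A stand alone, are transcribed throughout the cell cycle and give ordinary polyadenylated messages. Some canonical genes can also make polyadenylated transcripts when transcription runs on past the stem-loop. In bulk poly-A samples, fewer cells in S phase, less histone RNA per cell and a smaller polyadenylated share of it cannot be told apart.

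The stem-loop is shown first because it is the feature that sets canonical histone messages apart from polyadenylated ones. GENCODE v29 protein-coding transcripts (GRCh38) were searched with a pattern for the histone stem-loop. It allows alternative bases at some positions and does not check that the arms pair. A match was found on the transcribed strand in 27 of 59 canonical genes (45.8%), in 2 of 13 variant genes and in 50 of 19702 genes in all (0.254%). Of the 32 canonical genes without a match, 28 have models that hold no 3′ untranslated region, so the letters could not be looked for there. The sites below belong to members with values in the text, and the capitals mark the stem, the loop and the second arm of the stem.
H2AC6: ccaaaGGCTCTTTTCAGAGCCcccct
H2BC5: ccaaaGGCTCTTTTAAGAGCCacgca
H2BC21: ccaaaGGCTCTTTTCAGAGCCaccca
H4C11: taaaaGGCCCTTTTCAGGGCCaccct
H4C15: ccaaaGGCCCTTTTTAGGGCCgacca
H2AX: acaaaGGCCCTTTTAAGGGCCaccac
The H2AC6 site lies at chr6:26124664-26124689 on the plus strand, that of H2BC5 at chr6:26158582-26158607 (plus) and that of H4C11 at chr6:27824454-27824479 (plus). The H2BC21 site lies at chr1:149886183-149886208 on the minus strand, that of H4C15 at chr1:149860764-149860789 (minus) and that of H2AX at chr11:119094893-119094918 (minus). H2AX and the near-silent H3-4 are the 2 variants with a site. The deposited span of H2AX runs 1024 bases beyond its stem-loop.

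Most of the deposited canonical gene spans that could be compared stop at the stem-loop. For 26 canonical genes with a site and a deposited span on the same chromosome, the span ended within 20 bases of the stem-loop in 18 and ran further in 8. H2AC6 and H4C11 are of the first kind, with 6 bases beyond the stem-loop in each. H2BC21 (1729 bases beyond), H4C15 (7507) and H2BC5 (14200) are of the second kind. Of the 18 genes whose span stops there 3 had enough counts to be tested, and of the 8 that run on 4 did. In GENCODE, 20 of the 27 canonical genes with a site had a transcript that reached at least 100 bases beyond it. The furthest reached 1114 bases beyond for H2AC6 and 39 for H2BC5, so both kinds depend on the annotation. Seen from the GENCODE models, a poly-A signal (AATAAA or ATTAAA) stood in the last 50 bases of a transcript in 18 of 59 canonical genes and 10 of 13 variants, beside 81.9% of all genes. For 28 of the 59 canonical genes the models hold no 3′ untranslated region, so a signal after the coding part could not be found there.

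The promoter that 2 of the members share is shown because their counts moved apart. H2AC20 and H2BC21 are transcribed away from each other on chromosome 1 from starts 236 bases apart. The window of 250 bases before to 50 bases after the H2AC20 start, chr1:149886668-149886967 on the plus strand (RefSeq, GRCh38.p14), covers both starts. Capitals mark ATTTGCAT (the octamer bound by POU2F1), CCAAT and TATAAA, each searched on both strands, so that reverse matches read ATGCAAAT, ATTGG and TTTATA.
H2AC20: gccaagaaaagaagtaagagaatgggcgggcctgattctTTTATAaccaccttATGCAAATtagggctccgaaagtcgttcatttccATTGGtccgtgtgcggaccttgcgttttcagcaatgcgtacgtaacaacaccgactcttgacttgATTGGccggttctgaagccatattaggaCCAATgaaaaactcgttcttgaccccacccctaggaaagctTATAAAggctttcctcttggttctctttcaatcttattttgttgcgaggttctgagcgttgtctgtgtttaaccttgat
This window holds 1 octamer, 3 CCAAT boxes and 2 TATAAA boxes. Among promoters of equal length, ATTTGCAT was present in 10 of 13 canonical H2A and 12 of 16 canonical H2B genes, in 1 of 9 canonical H3 genes, in 0 of 11 canonical H4 genes and in 1 of 11 variants. All 27305 RefSeq promoters gave 1.8% for this motif. CCAAT was found in 45 of 54 canonical promoters and TATAAA in 35 of 54, beside 35.7% and 12.0% of all promoters. Variants also held them, CCAAT in 10 of 11 and TATAAA in 6 of 11. The canonical H4 promoters differ from the rest, with CCAAT in 2 of 11. These matches describe letters only.

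Total counts lay between 15952673 and 18809242 per library. Library 1 of the 10 mM group stands apart: its TMM scaling factor was 0.559, while the other 16 lay between 0.967 and 1.107. Counts of called members are therefore given with and without it, and so are single genes where its absence changes a call described here. For some members control and 16 mM libraries 1 to 3 also lay apart from those with higher numbers, and 10 mM libraries 2 to 4 from 5 and 6, although the labels name no batch. KRT8 and KRT18, keratins of simple epithelia, averaged 306 and 377 FPKM in controls, whereas CDH1, EPCAM and KRT19, which epithelial cells usually express, stayed at or below 0.12 FPKM in every library. The immune and endothelial markers PTPRC, CD3E, PECAM1 and VWF stayed at or below 0.07 FPKM. Of the 5 mesenchymal markers VIM averaged 773 FPKM in controls and 554 at 16 mM, PDGFRB 12.7 and 3.50, FAP 2.02 and 0.472 and COL1A1 3.62 and 3.48, while COL1A2 stayed at or below 0.01, and their part in the histone results was not tested.

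Canonical histone RNA was scarce in these poly-A libraries, which does not give its level in the cells. All 59 canonical genes had a count in some library, but 32 stayed under 10 counts in every library. In controls the 59 genes together held between 349 and 620 counts (median 515), which is between 20.5 and 36.1 CPM (counts scaled to libraries of equal depth). The 13 variants held between 53780 and 73742 counts. Canonical genes thus made up between 0.494% (95% Wilson interval 0.445% to 0.549%) and 1.12% (1.03% to 1.21%) of histone counts in the control libraries. These intervals cover counting error only.

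Summed canonical counts were lowest at 16 mM. The 5 libraries at 16 mM gave 17.6, 17.4, 17.7, 20.01 and 18.3 CPM. All 5 lay below the lowest control, 20.5, but with TMM scaling the ranges overlapped, at 16.3 to 20.7 against 18.6 to 36.4 in controls. At 10 mM, library 1 gave 63.7 and the other 5 lay between 21.9 and 29.1, inside the control range. No test was made of these sums.

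Of the sums for chromosomes 6 and 1, only that of chromosome 6 was lower at 16 mM, in a split made after the values were seen. The 48 genes on chromosome 6 summed to between 15.3 and 26.7 CPM in controls (median 22.9) and to between 9.41 and 10.3 at 16 mM, so the groups do not overlap. At 10 mM they gave 46.8 in library 1 and between 14.3 and 18.7 in the others. The 9 genes on chromosome 1 gave between 5.10 and 9.37 in controls (median 7.18), 16.9 in 10 mM library 1, between 7.52 and 10.7 in the other 10 mM libraries and between 7.78 and 9.71 at 16 mM, with overlap. With TMM scaling the chromosome 6 sum remained apart, at 8.83 to 10.7 at 16 mM against 13.9 to 26.9 in controls. The chromosome 1 sum joins genes with estimates of either sign at 16 mM, described below (H2AC20 lower, H2BC21 and H4C15 higher).

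**Figure D1:**
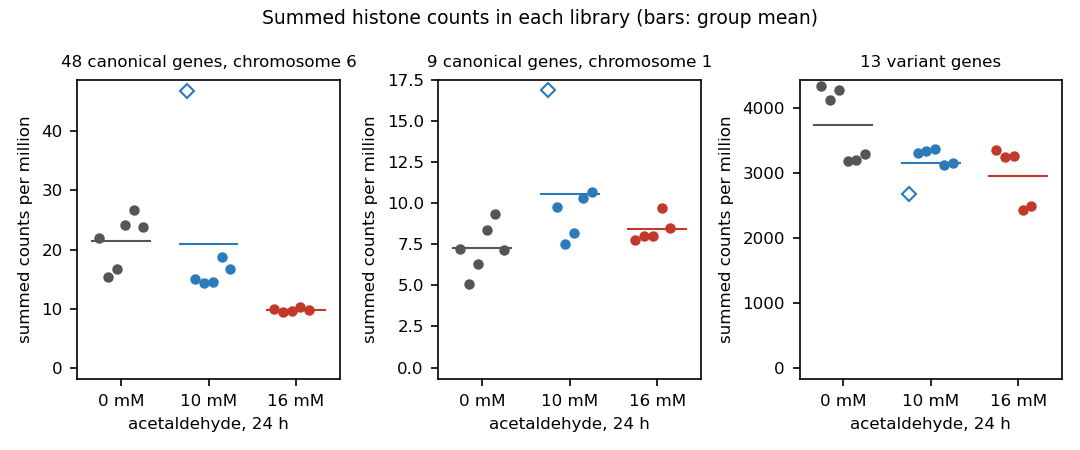
Summed CPM (vertical axis) of the canonical genes on chromosome 6, the canonical genes on chromosome 1 and the variants, by acetaldehyde dose; each point is a library, bars are group means and the open diamond is 10 mM library 1. The 16 mM libraries sit between 9.41 and 10.3 for chromosome 6, below all others, and inside the range of the others for chromosome 1.

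By protein family, the linker histones and H2A separated most clearly. The 5 canonical H1 genes summed to between 4.69 and 5.76 CPM in controls and between 2.21 and 2.90 at 16 mM. H1-2 held most of these counts, with 1170 over the 17 libraries. H1-5 had 61, H1-4 56, H1-3 21 and H1-6 1. The 14 canonical H2A genes, which pair with H2B in the nucleosome, summed to between 4.92 and 7.39 in controls, between 4.03 and 4.69 at 10 mM outside library 1 and between 2.93 and 3.79 at 16 mM. Neither family's control range overlapped its 16 mM range. The H2B (4.98 to 15.0 against 5.57 to 7.24), H3 (0.996 to 3.43 against 0.533 to 1.33) and H4 genes (4.86 to 6.29 against 3.61 to 5.51) overlapped between control and 16 mM.

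Only 11 canonical genes had counts high enough to be tested, and 9 variants. At 16 mM against control, over all 17 libraries, 3 canonical genes were called lower and 1 higher (edgeR quasi-likelihood test, Benjamini-Hochberg adjusted p under 0.05, here and throughout), where 35.3% of all 12564 tested genes were called, 18.1% lower and 17.3% higher. The median log2 change of the 11 was -0.95, beside 0.00 over all tested genes. Without 10 mM library 1, 7 were called lower and 1 higher, where 65.9% of 12545 genes were called, 32.2% lower. These are genes that passed a filter on low counts, and the other 48 canonical genes gave no test.

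H1-2, a canonical linker histone gene on chromosome 6, fell at 16 mM. Its counts were between 72 and 88 in controls (median 81) and 33, 42, 33, 39 and 45 at 16 mM, with no overlap. At 10 mM library 1 had 171 and the others between 56 and 75. The log2 change at 16 mM was -1.04 ± 0.38 (SE, adjusted p = 0.040), and -1.03 ± 0.13 without 10 mM library 1 (adjusted p = 2.96e-06). Within replicate numbers 1 to 3 the 16 mM mean was 0.470 of the control mean in FPKM, and 0.512 within the higher numbers. Leaving out any one of the 11 control or 16 mM libraries, with 10 mM library 1 kept, moved the adjusted p to between 0.051 and 0.083.

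H2AC6, an H2A gene on chromosome 6 whose deposited span stops at its stem-loop, changed most among the canonical genes called. It had between 7 and 30 counts in controls (median 17.5) and between 8 and 18 at 10 mM. The 16 mM libraries had 7, 5, 4, 1 and 0, and the groups met at 7 counts. Its log2 change at 16 mM was -2.32 ± 0.48 (adjusted p = 0.001). The call held with each library left out in turn. The ratio of 16 mM to control FPKM was 0.449 within replicate numbers 1 to 3 and 0.022 within the higher numbers.

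The 3 tested H2B genes of chromosome 6 (H2BC12, H2BC5 and H2BC4) had estimates below 0 at 16 mM with wide spread. H2BC12 had between 38 and 114 counts in controls (median 63.5) and 32, 34, 38, 45 and 31 at 16 mM, with overlap. Its log2 change was -0.90 ± 0.56 (adjusted p = 0.232), and -0.88 ± 0.28 without 10 mM library 1 (adjusted p = 0.010). That library alone had 240 counts of H2BC12, against between 44 and 63 in the other 10 mM libraries. H2BC5 had between 12 and 35 counts in controls (median 17.5) and 20, 6, 13, 7 and 7 at 16 mM, again overlapping. The change of H2BC5 was -0.95 ± 0.48 (adjusted p = 0.143), and -0.93 ± 0.35 without 10 mM library 1 (adjusted p = 0.026). The ratio of 16 mM to control FPKM differed along the replicate numbers, at 0.834 and 0.936 within numbers 1 to 3, and 0.440 and 0.356 within the higher numbers, for H2BC12 and H2BC5 respectively. H2BC4, chosen after its values were seen because it passed the test, had between 3 and 27 counts in controls and 8, 7, 5, 3 and 2 at 16 mM, with a log2 change of -1.38 ± 0.50 (adjusted p = 0.041). Leaving out control library 1, 4, 5 or 6 or 16 mM library 2, 3, 4 or 5 ended that call (adjusted p between 0.051 and 0.112).

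H4C11 and H4C12, neighbouring H4 genes on chromosome 6, share reads, since their estimated counts were complementary fractions in 11 of the 17 libraries. They were therefore read as a sum. The sum was between 47 and 74 in controls (median 62), 170 in 10 mM library 1, between 19 and 27 in the other 10 mM libraries and 22, 18, 19, 29 and 28 at 16 mM. All libraries of both doses except 10 mM library 1 lay below all controls. Summed, the pair gave a log2 change of -1.35 ± 0.64 at 16 mM (adjusted p = 0.113), and -1.35 ± 0.18 without that library (adjusted p = 3.67e-06). At 10 mM the sum gave 0.08 ± 0.58 (adjusted p = 0.938), and -1.35 ± 0.17 without that library (adjusted p = 1.33e-05). Summing pairs was added after the data were seen. For H4C11 alone the estimates were -1.77 ± 0.90 at 16 mM (adjusted p = 0.139) and -1.77 ± 0.53 without that library (adjusted p = 0.007).

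A further pair of neighbours, H2AC13 and H2AC14, shares reads in the same way. Its sum was between 9 and 14 in controls, 13 in 10 mM library 1, between 2 and 7 in the other 10 mM libraries and between 4 and 6 at 16 mM. The log2 change at 16 mM was -1.04 ± 0.40 (adjusted p = 0.053), and -1.04 ± 0.27 without that library (adjusted p = 0.003).

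On chromosome 1 the divergent genes H2AC20 and H2BC21 went different ways. H2AC20 had between 23 and 41 counts in controls (median 32.5), 127 in 10 mM library 1, between 15 and 20 in the other 10 mM libraries and 11, 11, 10, 15 and 22 at 16 mM. Apart from library 1, every exposed library lay below every control. The log2 change at 16 mM was -1.17 ± 0.69 (adjusted p = 0.204), and without library 1 it was -1.17 ± 0.22 (adjusted p = 1.98e-04). At 10 mM the estimate was 0.54 ± 0.61 over all libraries (adjusted p = 0.547) and -0.92 ± 0.22 without library 1 (adjusted p = 0.002), so that library set its sign.

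H2BC21, whose span runs 1729 bases past its stem-loop, had between 19 and 66 counts in controls (median 35). It had 24 in 10 mM library 1, between 56 and 84.4 in the other 10 mM libraries and 58, 65, 51, 56 and 51 at 16 mM. The groups overlapped, and library 1 was the lowest at 10 mM for H2BC21 where it was the highest for H2AC20. At 10 mM the log2 change was 0.76 ± 0.27 (adjusted p = 0.058), and 0.87 ± 0.25 without library 1 (adjusted p = 0.010). At 16 mM it was 0.58 ± 0.28 (adjusted p = 0.126), and 0.59 ± 0.25 without library 1 (adjusted p = 0.050, just above the threshold). Its 16 mM level was 2.37 times the control level within replicate numbers 1 to 3 and 1.05 times within the higher numbers. The difference between both genes' changes was not tested.

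H4C15, an H4 gene on chromosome 1 with a span 7507 bases beyond its stem-loop, was the canonical gene called higher. It shares reads with its neighbour H4C14. The levels of H4C15 were between 3.60 and 4.83 FPKM in controls (median 4.43), between 5.36 and 7.81 at 10 mM and 6.28, 6.84, 5.23, 8.26 and 8.80 at 16 mM. No exposed library overlapped the controls on this scale, library 1 included. In estimated counts of H4C15 the groups did overlap, at 12.5 to 30 in controls, 25 to 34 at 10 mM and 28.5 to 45.5 at 16 mM. The log2 change in counts at 16 mM was 0.82 ± 0.28 (adjusted p = 0.030), and 0.77 ± 0.26 for both copies summed (adjusted p = 0.030). At 10 mM it was 0.75 ± 0.27 (adjusted p = 0.060) for H4C15 and 0.79 ± 0.25 for the sum (adjusted p = 0.038). Leaving out control library 1, 2, 3 or 6 or 16 mM library 4 or 5 ended the call at 16 mM (adjusted p between 0.050 and 0.097).

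**Figure D2:**
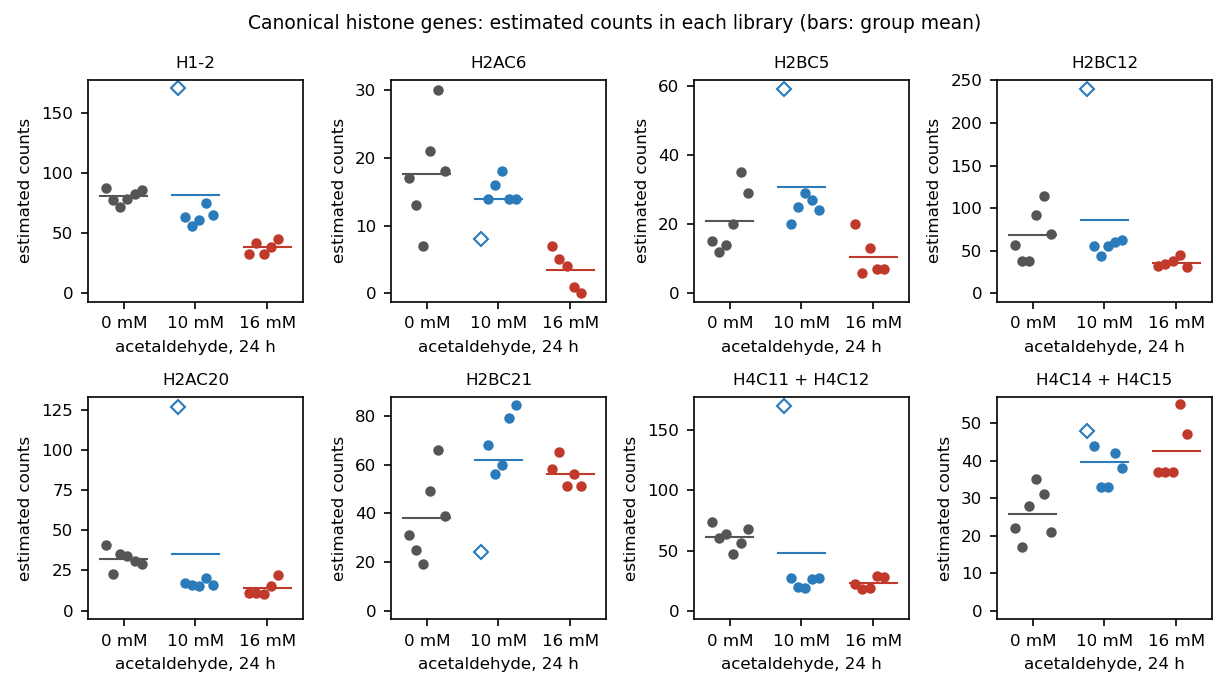
Estimated counts (vertical axis) in each library for 6 canonical genes and 2 summed pairs that share reads, by acetaldehyde dose; bars are group means and the open diamond is 10 mM library 1. H1-2 and H2AC20 lie lower at 16 mM than in any control, with 33 to 45 and 10 to 22 counts, and the sum of H4C14 and H4C15 lies higher, with 37 to 55 against 17 to 35.

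At 10 mM against control, no canonical gene passed the test over all 17 libraries, and 2 had an unadjusted p under 0.05, where 18.7% of all tested genes were called, 9.41% higher and 9.3% lower. DESeq2 called 3 at this dose, but the share of all genes it called is not given, so these 3 cannot be set against the edgeR shares. Without library 1, 2 were lower (H2AC20 and H1-2) and 1 higher (H2BC21), where 45.2% of tested genes were called, 22.4% higher and 22.8% lower. H1-2 then changed by -0.32 ± 0.12 (adjusted p = 0.045). The median log2 change of the 11 tested genes was 0.54 with library 1 and -0.21 without it, beside 0.05 and 0.00 over all tested genes. Both comparisons with control use the same 6 control libraries.

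Between the doses, 3 canonical genes were lower at 16 mM than at 10 mM and 0 higher, where 14.1% of tested genes were called, 7.46% lower and 6.69% higher. They were H2AC6 (log2 change -2.07 ± 0.48, adjusted p = 0.011), H2BC5 (-1.73 ± 0.48, adjusted p = 0.025) and H1-2 (-1.34 ± 0.38, adjusted p = 0.028). Without 10 mM library 1 these 3 and H2BC4 were called, with -2.09 ± 0.49, -1.20 ± 0.35 and -0.71 ± 0.14 for H2AC6, H2BC5 and H1-2, where 44.1% were called, 20.9% lower. The 3 genes were chosen after their values were seen. H1-2 lost its call when any one 16 mM library was left out, and H2BC5 when 16 mM library 2, 4 or 5 was.

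The H3 genes of the clusters had too few counts to be tested. In the authors' deposited table, which tested more low-count genes, 13 canonical genes were lower and 1 higher at 16 mM at a q-value under 0.05, of 57 with a q-value, where 50.4% of all genes with one were called. They included H3C10 (log2 change -2.61, q = 0.0011) and H3C8 (-2.16, q = 0.0132), both chosen after their values were seen. H3C10 had between 3 and 17 counts in controls and between 0 and 2 at 16 mM, with no overlap. H3C8 had between 1 and 13 in controls and between 1 and 2 at 16 mM. Between the doses the authors' deposited table had 5 canonical genes lower at 16 mM and 0 higher, of 59 with a q-value, where 9.52% of all genes with one were called.

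Variant genes were abundant. The 7 described here ranged in the controls from H2AJ at 35.9 ± 8.12 FPKM to H2AZ1 at 829.5 ± 122.6 FPKM (SD, n = 6). Together the 13 summed to between 3176 and 4334 CPM in controls, 2668 in 10 mM library 1, between 3113 and 3366 in the other 10 mM libraries and between 2432 and 3345 at 16 mM, so the groups overlap. With TMM scaling the controls lay at 3208 to 4136, above the 10 mM libraries other than library 1 (3084 to 3143) and the 16 mM libraries (2515 to 3123), and library 1 was then the highest at 4773. This sum is set by its most abundant genes and does not stand for each variant. Without that scaling, the 4 H2A variants averaged 939 CPM in controls and 897 at 16 mM. The 5 H3 variants averaged 1381 and 1301, and both families overlapped between these groups. At 16 mM, over all libraries, 2 of 9 tested variants fell (H1-10 and H2AZ2) and 0 rose, beside 18.1% of all tested genes called lower and 17.3% higher. Without 10 mM library 1, 4 were lower, among them H1-10, H2AJ and H2AZ2, and 1 higher (H2AX), beside 32.2% and 33.7%. The median log2 change of the 9 was -0.14, beside 0.00 over all tested genes.

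**Figure D3:**
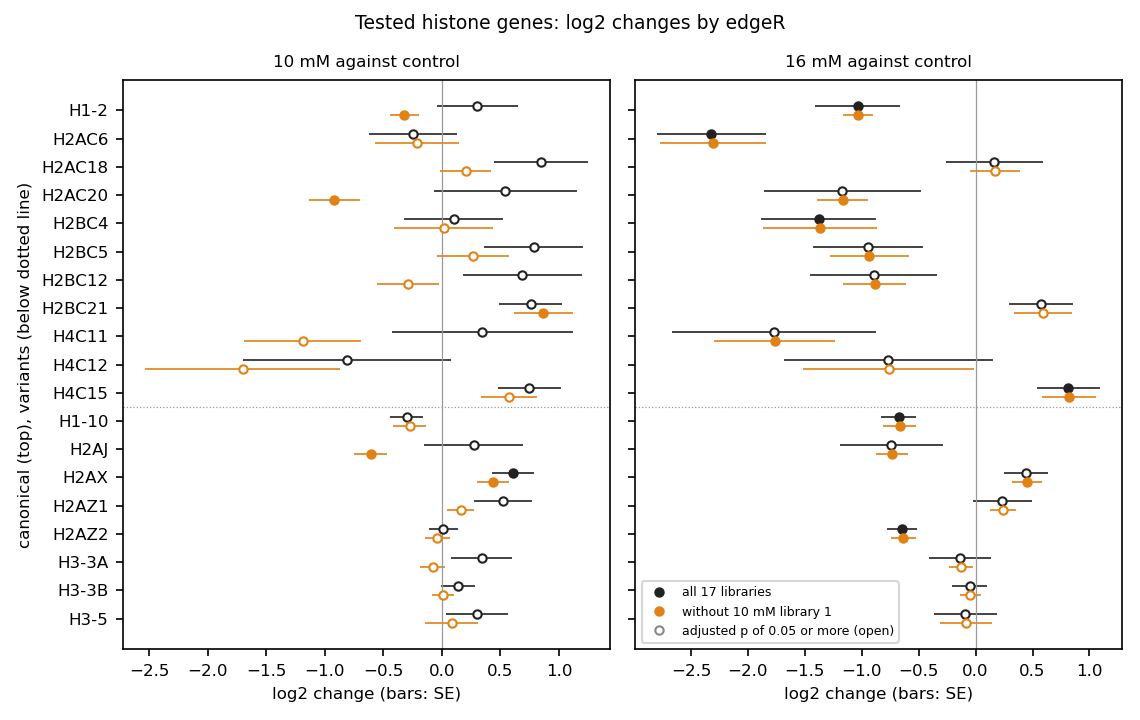
Log2 changes against control (horizontal axis, points with SE bars) of tested histone genes named in the text at 10 mM and 16 mM, with all 17 libraries (black) and without 10 mM library 1 (orange); filled points passed an adjusted p of 0.05. At 16 mM both fits give like estimates, such as -1.04 and -1.03 for H1-2, whereas at 10 mM H2AC20 moves from 0.54 to -0.92.

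H2AX, the H2A variant that is phosphorylated at DNA breaks, was higher in the poly-A RNA of exposed cells. Because it also has a stem-loop site, messages ending there would mostly escape capture, and its total message was not measured. H2AX lay between 57.1 and 80.8 FPKM in controls (median 65.7), between 84.7 and 103 at 10 mM and at 79.6, 85.9, 77.2, 98.9 and 113 at 16 mM. All 10 mM libraries, library 1 included, exceeded all controls. At 16 mM 3 libraries did, and 2 lay inside the upper end of the control range. At 10 mM H2AX rose by 0.61 ± 0.18 on the log2 scale (adjusted p = 0.028), the one variant called there, and by 0.44 ± 0.13 without library 1 (adjusted p = 0.013). At 16 mM the estimate was 0.44 ± 0.19 (adjusted p = 0.080), and 0.45 ± 0.13 without library 1 (adjusted p = 0.007). The ratio of 16 mM to control was 1.35 within replicate numbers 1 to 3 and 1.41 within the higher numbers. With control library 1, 2 or 3 left out and 10 mM library 1 kept, the 10 mM call was lost (adjusted p between 0.062 and 0.070).

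The H2A.Z genes, whose proteins replace H2A at promoters, differed from each other. H2AZ2 lay between 112 and 156 FPKM in controls (median 134), between 89.9 and 135 at 10 mM with library 1 the lowest, and at 96.2, 91.8, 96.1, 69.3 and 70.4 at 16 mM. The control and 16 mM libraries do not overlap. H2AZ2 fell by 0.64 ± 0.13 on the log2 scale at 16 mM (adjusted p = 0.001) and by 0.66 ± 0.13 relative to 10 mM (adjusted p = 0.005). Both calls held with each library left out in turn. H2AZ1 lay between 679 and 964 FPKM in controls (median 848) and at 953, 920, 926, 1048 and 1031 at 16 mM, with overlap, and its log2 change was 0.24 ± 0.26 (adjusted p = 0.519). H2AZ1 reached 1308 FPKM in 10 mM library 1 and between 863 and 993 in the other 10 mM libraries. The difference between the changes of both genes was not tested.

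H2AJ, an H2A variant known to accumulate in senescent cells, lay between 27.3 and 46.3 FPKM in controls (median 34.3). It was at 71.8 in 10 mM library 1, between 18.5 and 27.5 in the other 10 mM libraries and at 21.6, 26.9, 22.1, 17.4 and 19.6 at 16 mM. All 16 mM libraries lay below all controls, and the 10 mM libraries other than library 1 reached the lowest control, at 27.5 against 27.3. Over all libraries the log2 changes were 0.27 ± 0.42 at 10 mM (adjusted p = 0.674) and -0.74 ± 0.45 at 16 mM (adjusted p = 0.225). Without library 1 they were -0.61 ± 0.14 (adjusted p = 0.002) and -0.73 ± 0.14 (adjusted p = 2.53e-04). The ratio of 16 mM to control was 0.551 and 0.636 within the lower and the higher replicate numbers.

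H1-10, a linker histone variant, lay between 182 and 206 FPKM in controls (median 191). At 10 mM library 1 had 76.9 and the others between 129 and 186, and the 16 mM libraries had 155, 150, 136, 77.7 and 82.5. No 16 mM library overlapped the controls. H1-10 fell by 0.68 ± 0.15 on the log2 scale at 16 mM (adjusted p = 0.002), a call that held with each library left out. The ratio to control was 0.761 within the lower and 0.422 within the higher replicate numbers.

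The H3.3 genes, whose product is laid down outside replication, gave no call. H3-3A lay between 259 and 372 FPKM in controls (median 322) and at 286, 274, 283, 295 and 312 at 16 mM, inside the control range. Its log2 change at 16 mM was -0.14 ± 0.27 (adjusted p = 0.743). H3-3B lay between 398 and 617 FPKM in controls (median 465.8) and at 476, 474, 476, 426 and 433 at 16 mM, likewise inside it, with a log2 change of -0.05 ± 0.15 (adjusted p = 0.830). At 10 mM H3-3A reached 480 FPKM in library 1 and lay between 286 and 313 in the others. The retrogene H3-5 shares reads with H3-3B, and the pair summed gave -0.05 ± 0.15 at 16 mM (adjusted p = 0.830).

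**Figure D4:**
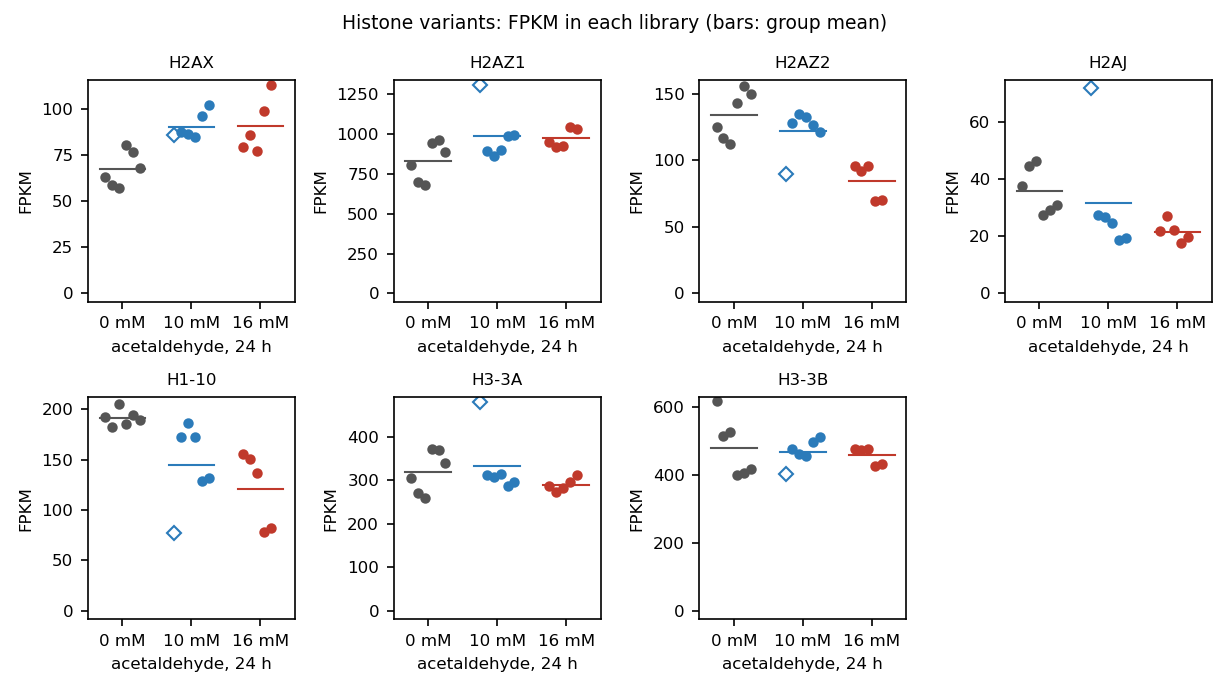
FPKM (vertical axis) of 7 histone variants in each library by acetaldehyde dose; bars are group means and the open diamond is 10 mM library 1. H1-10, H2AZ2 and H2AJ lie below all controls at 16 mM, with at most 155, 96.2 and 26.9 FPKM, while H3-3A and H3-3B lie inside the control range.

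Most of the remaining members were near the floor. The variants H1-7, H1-8, H3-2 and H3-4 were not tested, and H3-2 had at most 7.10 counts in any library. H2AC18 and H4C12 had enough counts to be tested and were not called in any of these comparisons. H2AC18, on chromosome 1, had between 15 and 26 counts in controls and between 19 and 30 at 16 mM, with a log2 change of 0.16 ± 0.43 (adjusted p = 0.805).

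The genes that make and process histone messages were read beside the members. Of 15 genes for histone transcription and 3′ end processing, 2 rose and 1 fell at 16 mM over all libraries (8 and 3 without 10 mM library 1), and 2 fell at 10 mM (3 rose and 4 fell without it). These and the following counts are to be read beside the shares of all tested genes called higher and lower, which were 17.3% and 18.1% at 16 mM and 9.41% and 9.3% at 10 mM, or 33.7% and 32.2% and 22.4% and 22.8% without that library. SLBP lay at 64.2 ± 9.24 FPKM in controls and 57.7 ± 3.15 at 16 mM (SD, n = 6 and n = 5), with a log2 change of -0.14 ± 0.14 (edgeR adjusted p = 0.475). At 10 mM it lay at 50.2 ± 5.08 FPKM, with a log2 change of -0.17 ± 0.13 (adjusted p = 0.367), and -0.33 ± 0.07 without library 1 (adjusted p = 0.001). NPAT, which activates cluster transcription at the histone locus body, lay between 6.43 and 7.38 FPKM in controls and between 8.08 and 9.15 at 16 mM, without overlap. Its change was 0.32 ± 0.19 (adjusted p = 0.215), and 0.32 ± 0.06 without 10 mM library 1, where it stood at 1.20 FPKM (adjusted p = 2.34e-04). CASP8AP2, another locus body protein, changed by -0.19 ± 0.21 at 16 mM (adjusted p = 0.524) and fell by 0.60 ± 0.20 at 10 mM (adjusted p = 0.049).

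Of 10 genes for histone messenger decay, 5 rose and 1 fell at 16 mM over all libraries (5 and 2 without 10 mM library 1), and 2 rose at 10 mM (4 without it). UPF1, the helicase recruited by SLBP when replication stops, rose by 0.65 ± 0.09 on the log2 scale at 16 mM (adjusted p = 4.33e-05), and the decapping enzyme gene DCP2 by 0.79 ± 0.19 (adjusted p = 0.003). ERI1, an exonuclease that trims the stem-loop, rose by 0.29 ± 0.07 (adjusted p = 0.005). DIS3L2, an exonuclease for uridylated RNA, fell by 0.58 ± 0.12 (adjusted p = 0.001). The median of the 10 was 0.17.

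Of 25 tested chaperone and assembly genes, 2 rose and 4 fell at 16 mM over all libraries (9 and 10 without 10 mM library 1), and 0 rose and 3 fell at 10 mM (2 and 10 without it). ANP32E, which removes H2A.Z from chromatin, fell by 0.92 ± 0.12 (adjusted p = 2e-05), NASP, an H3 and H4 chaperone, by 0.42 ± 0.13 (adjusted p = 0.018) and NAP1L1, an H2A and H2B chaperone, by 0.57 ± 0.15 (adjusted p = 0.008). SUPT6H, a chaperone that travels with RNA polymerase II, rose by 0.38 ± 0.09 (adjusted p = 0.003). Of 4 tested histone genes whose symbols fall outside the rule, 0 rose and 1 fell at 16 mM (0 and 2 without 10 mM library 1). MACROH2A2 fell by 0.47 ± 0.12 (adjusted p = 0.006). H2AW changed by -0.72 ± 0.33 (adjusted p = 0.108), and by -0.71 ± 0.27 without that library (adjusted p = 0.027).

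S phase and mitosis genes are given beside the canonical genes because canonical messages are made in S phase. Of 20 S phase genes, 1 rose and 1 fell at 16 mM over all libraries, and 2 rose and 10 fell without 10 mM library 1. At 10 mM 0 rose and 2 fell, and 0 and 11 without that library. POLA1, a subunit of the replicative primase complex, fell by 1.43 ± 0.14 at 16 mM (adjusted p = 1.41e-06), and CCNE1, the cyclin of S phase entry, rose by 0.52 ± 0.11 (adjusted p = 0.002). Of 10 mitosis genes, 1 rose and 1 fell at 16 mM (2 and 1 without 10 mM library 1), and 1 rose at 10 mM with and without it. The part of the cell cycle in the canonical counts was not tested.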

How the data were processed

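The members and gene lists were chosen with earlier results of these data known. Poly-A RNA of 17 libraries was measured, and groups came from the sample titles. The submitters' processing notes name HISAT, Bowtie2 2.3.4.3, RSEM 1.3.1, DESeq2 1.4.5 and build GRCh38.p13, with no roles. The columns of read counts hold expected counts that the authors deposited without normalization, judged so because 13.1% are not whole. FPKM, deposited by the authors under that name, served for levels. The authors' deposited log2 fold changes and q-values were used only where their table is named.

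Expected counts were rounded and fitted with edgeR 4.0.16 (R 4.3.3; TMM, filterByExpr, glmQLFit, glmQLFTest) on 12564 genes in one fit with 14 residual degrees of freedom. Tests were two-sided with Benjamini-Hochberg adjustment over all tested genes, and calls needed an adjusted p under 0.05. SE is the log2 change over the square root of F. The code was tested on simulated data. Canonical members carry cluster symbols (H2AC, H2BC, H2BU, H3C, H4C, H4-16 and H1-1 to H1-6), and variants are the rest. Named genes were called canonical members with at least 1 FPKM in a group, at most the 8 with the highest mean, variants fixed by name (1 is not reported here), and from the gene lists SLBP, NPAT, CASP8AP2 and up to 4 called members of each. Alternatives were limma 3.58.1 on log2 FPKM with pseudocounts of 1 and 0.1, DESeq2 1.42.0, DESeq2 size factors, no filter, the compared groups alone, a replicate block, a term for replicate numbers, and leaving out each library. The sources used here do not give strandedness. Every sample column matched a sample.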

Additional observations from a re-analysis of the deposited data

Results flagged for a closer look

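In 13 of 60 groups examined for a single library far from the others, 10 mM library 1 was that library. Chance flags about 1 in 20 independent groups. That rate cannot be applied here, since the sums share genes and only the 10 mM groups hold this library. Library 1 was highest for the summed canonical genes (63.75 CPM, next 29.06), for those on chromosome 6 (46.84, next 18.71) and on chromosome 1 (16.91, next 10.69). It was lowest for the summed variants (2668.2, next 3113.3), where TMM scaling turned it to the highest (4773, next 3143). In FPKM it was highest for H4C11 (73.23), H2BC12 (34.63), H1-2 (21.08), H2AC20 (34.2), H2BC5 (12.41), H2AZ1 (1308.43), H2AJ (71.81) and H3-3A (479.87), and lowest for H2AZ2 (89.92). H2AC6 and H2BC21 were not raised there, with 8 and 24 counts.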

How the results depend on the processing

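Counts of called canonical genes at 10 mM, 16 mM and between doses (0, 4 and 3 over all libraries) ran over leave-one-out fits from 0 to 3, 1 to 8 and 1 to 4, and those of variants (1, 2 and 1) from 0 to 2, 2 to 5 and 1 to 2. Other counts that moved were, for canonical genes at 10 mM, 1 with pairs that share reads summed, 6 with pairs summed and without 10 mM library 1, 3 with DESeq2, 3 with limma at a pseudocount of 1 and 2 at 0.1. At 16 mM they were 9 without a filter, 8 with DESeq2, 10 with limma at either pseudocount and 9 with pairs summed and without library 1. Between doses DESeq2 gave 10 and the 2 groups alone 1. Variants gave 4 at 16 mM with the 2 groups alone, 2 between doses with DESeq2, and 2, 5 and 2 with pairs summed and without library 1. The cause of these moves was not tested. Among the alternative fits of this section, the share of all genes called is given only for the one without 10 mM library 1 alone. The other counts therefore cannot be set against a background, and the number of members tested can differ among fits. Replicate numbers did not pair the samples (12 of 16 pairs correlated above 0.1, 3 best with their own number). A replicate block gave 1 canonical call at 10 mM and 2 at 16 mM. The replicate block without library 1 gave 3 and 9 canonical and 2, 6 and 2 variant calls. A term for replicate numbers 1 to 3 against 4 to 6, without library 1, gave 5 and 9 canonical and 3, 6 and 3 variant calls, although 10 mM library 4 lay with 2 and 3.

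At 10 mM the sign of 7 tested members changed without library 1. H1-2, H2AC20 and H2AJ gave -0.32, -0.92 and -0.61, and the same with pairs summed. With the replicate block as well they gave -0.33, -0.89 and -0.60, and with the replicate number term -0.34, -0.95 and -0.57. Limma gave -0.12, -0.42 and -0.33 at a pseudocount of 1 and -0.14, -0.49 and -0.34 at 0.1. The replicate block alone gave -0.10 for H2AC20 and -0.10 for H2AJ. Leave-one-out fits ran from -0.32 to 0.43 for H1-2, from -0.92 to 0.75 for H2AC20 and from -0.61 to 0.43 for H2AJ at 10 mM, and from -0.087 to 0.030 for H3-3B at 16 mM. H4C11, H2BC12, H3-3A and H2AZ2 turned to -1.19, -0.29, -0.078 and -0.038 at 10 mM without library 1. Few counts limit the canonical genes: 32 of 59 had under 10 in every library.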
